A study of Mus musculus with 8 samples.

Results

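The genes described here are those of the mouse major histocompatibility complex (MHC) and its antigen presentation machinery. They were taken from the deposited count table by symbol: every symbol beginning H2- or Cd1d, every symbol beginning Tapbp, and B2m, Tap1, Tap2, Cd74, Ciita, Nlrc5 and Erap1. Of 23372 genes in the table, 54 met this rule, and their expression was compared between Lsd1 knockout and control brown adipose tissue. The tissue came from mice of 10 weeks of age on a C57BL/6 N background. The 4 knockout libraries (512, 513, 515 and 516) came from mice with Lsd1 floxed alleles crossed to a Ucp1-Cre line, and the 4 control libraries (511, 514, 517 and 518) from Lsd1 floxed mice. Lsd1, gene symbol Kdm1a, is a histone demethylase. The Ucp1 promoter drives Cre in brown adipocytes, so other cells of the tissue keep the gene, and since the controls are described as floxed only, the deletion and the Cre transgene cannot be told apart. The labels number the libraries but say nothing more of how they were collected, so p-values measure the spread between these libraries.

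Class I molecules are made of a heavy chain and the light chain beta-2-microglobulin, and in nearly every nucleated cell they show peptides from inside the cell to CD8 T cells. The peptides are cut by the proteasome, carried into the endoplasmic reticulum by the TAP transporter and fitted into the groove by tapasin and its relatives. Class II molecules are made chiefly by professional antigen-presenting cells, where the invariant chain Cd74 guards the groove until the editor H2-DM exchanges it for a peptide from the endosome. In fat depots class II is carried mainly by macrophages, dendritic cells and B cells, and adipocytes are known to carry CD1d, which shows lipids to natural killer T cells.

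Levels are CPM, counts relative to the library total after TMM scaling, and values of a group are given in the order of the library numbers above. Fold changes are knockout over control and carry an approximate SE, the standard error, and a gene was called when its adjusted p from edgeR's quasi-likelihood test, two-sided and adjusted by Benjamini-Hochberg over 14178 genes, was under 0.05. Kdm1a had 14.0, 12.2, 13.2 and 13.0 CPM in knockouts, against 35.3, 36.0, 33.3 and 36.9 CPM in controls. The 10 brown adipocyte markers were all detected, and Ucp1 lay at 1202 to 1525 CPM in knockouts and 3143 to 5574 CPM in controls, so these genes went with the tissue and genotype labels. The libraries held 23683933 to 25120159 counts in knockouts and 24230717.5 to 28570627.5 in controls, with 1 row kept for each gene. Control 517 stood apart from the other controls in immune genes. Its Ptprc level, the pan-leukocyte marker, was 22.2 CPM, against 6.00 to 10.2 CPM in the other controls, and its 10 B cell markers summed to 28.4 CPM, against 5.65 to 11.1 CPM. Values that rest on it are given with and without it. In RNA of whole tissue, fewer cells of a type and less RNA per cell cannot be told apart.

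The promoters of the class I genes that the results turn on are shown with a class II promoter beside them, because they carry the short elements through which MHC genes are known to be switched on. Each is the 200 bases before the annotated start, 5′ to 3′ on the strand of the gene, from RefSeq (GRCm38.p6). Capitals mark matches, on either strand, to GGATTCCCC (a kappaB core of class I enhancer A), TTTCACTT (a core of the class I interferon response element), GAAANNGAA (an interferon response repeat), TGACG (site alpha or X2) and CCAAT (the Y box).
H2-Q10: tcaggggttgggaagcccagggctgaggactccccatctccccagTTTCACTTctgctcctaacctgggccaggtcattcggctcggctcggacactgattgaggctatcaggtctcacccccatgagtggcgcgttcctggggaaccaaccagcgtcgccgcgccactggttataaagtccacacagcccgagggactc
H2-K1: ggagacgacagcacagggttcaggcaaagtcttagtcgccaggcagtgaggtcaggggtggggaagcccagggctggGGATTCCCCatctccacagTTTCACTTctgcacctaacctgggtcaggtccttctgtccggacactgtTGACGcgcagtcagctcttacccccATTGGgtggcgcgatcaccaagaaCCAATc
H2-D1: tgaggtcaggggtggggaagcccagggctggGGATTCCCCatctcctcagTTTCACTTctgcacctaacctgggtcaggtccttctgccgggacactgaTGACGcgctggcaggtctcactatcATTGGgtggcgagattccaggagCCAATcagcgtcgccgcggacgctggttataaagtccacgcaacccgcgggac
B2m: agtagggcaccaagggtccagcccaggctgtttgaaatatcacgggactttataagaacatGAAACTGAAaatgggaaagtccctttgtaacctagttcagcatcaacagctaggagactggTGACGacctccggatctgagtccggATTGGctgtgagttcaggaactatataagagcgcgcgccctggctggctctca
H2-Aa: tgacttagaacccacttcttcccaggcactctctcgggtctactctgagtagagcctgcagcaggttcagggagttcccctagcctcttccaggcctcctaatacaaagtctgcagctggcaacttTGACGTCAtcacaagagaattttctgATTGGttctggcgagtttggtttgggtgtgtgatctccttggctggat
The windows lie at chr17:35469889-35470088 (H2-Q10, plus strand), chr17:34000334-34000533 (H2-K1, minus strand), chr17:35262894-35263093 (H2-D1, plus strand), chr2:122147487-122147686 (B2m, plus strand) and chr17:34287824-34288023 (H2-Aa, minus strand). In H2-Aa the TGACG matches of both strands overlap each other, and no other matches overlap.

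The windows of H2-K1 and H2-D1 held a match to each element but the interferon repeat, which was found in B2m. H2-Q10 held TTTCACTT, 155 bases before its start, while the letters of the other elements were not in its window. Of the 54 members 35 had an entry in the promoter table, and Cd1d1, Tapbpl and H2-L were among those without one. GGATTCCCC was found in 3 of these 35 windows (H2-D1, H2-K1 and H2-Q6), against 0.204% of the 32851 windows in the table. TTTCACTT was found in 9 of 35, all of them class I heavy chain genes, against 1.03%. GAAANNGAA was found in 4 of 35 against 5.57%, TGACG in 13 of 35 against 15.7%, and CCAAT in 30 of 35 against 29.3%. Many of these members are near relatives whose promoters share their descent, so the shares are descriptions only.

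Of the 54 members 36 had enough counts to be tested, and 18 did not. Among the 36, 8 were called higher in knockouts (H2-K1, H2-D1, H2-L, H2-Q10, B2m, Tap1, Tapbp and H2-DMa), 3 were called lower (Cd1d1, Tapbpl and H2-Ke6), and 25 were not called. The knockout differed widely from the control: 34.4% of all tested genes were called, 15.4% higher and 18.9% lower. Members were thus called higher in 22.2% and lower in 8.33% of cases. The groups did not overlap in 9 of the 36 members, 25.0%, against 35.5% of all tested genes. Nothing particular to the members is read from these shares. Their median log2 fold change was 0.27, against -0.01 over all tested genes, with 26 members on the positive side and 10 on the negative. The members' median was 0.50 without control 517 and 0.42 without knockout 512, and it was 0.18 without control 514. It was also 0.43 with limma-voom and 0.47 with library sizes alone, which moved the median of all tested genes to 0.19. H2-L and H2-D1, H2-T9 and H2-T22, H2-Q9 and H2-Q7, and H2-Q8 and H2-Q6 are annotated over the same loci or draw on nearly the same reads. With 1 of each pair kept, 32 members were tested, 7 called higher and 3 lower.

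**Figure D1:**
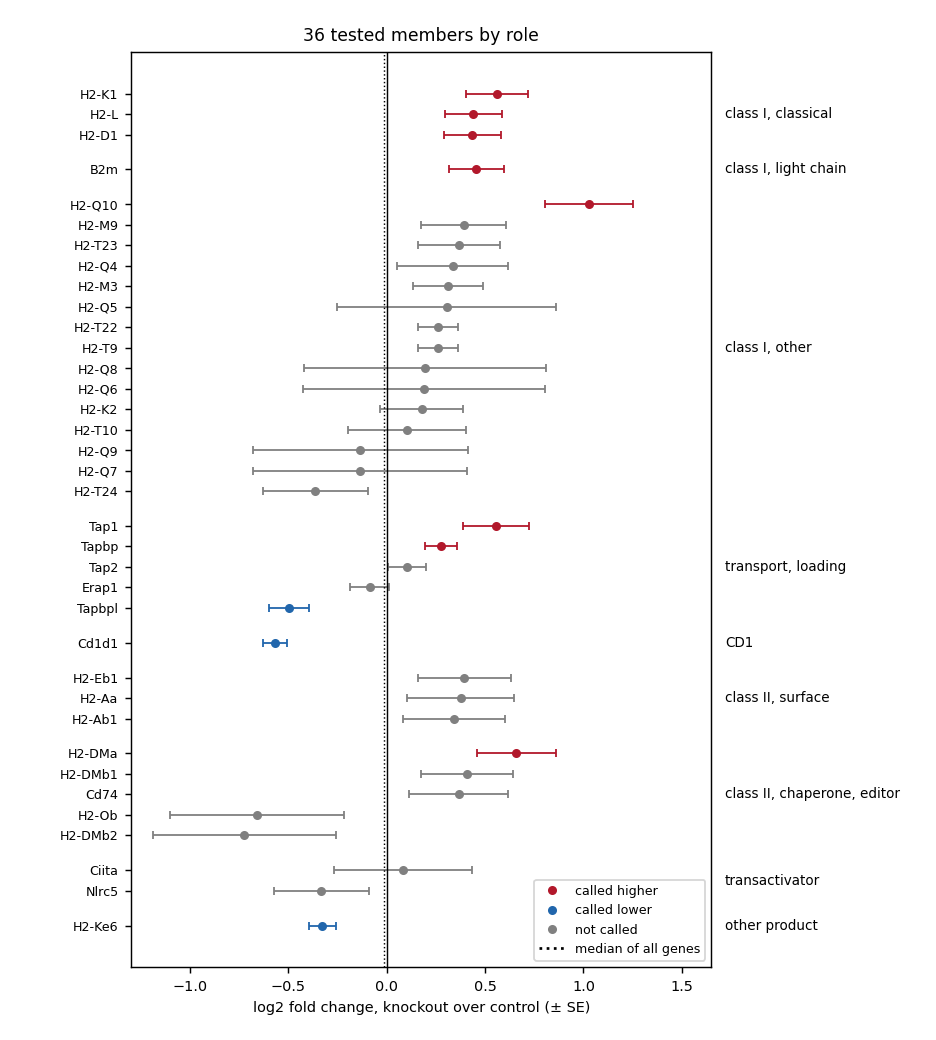
Log2 fold change of the 36 tested members, knockout over control, with bars of 1 approximate SE, grouped by role. Red points are genes called higher in knockouts, blue points genes called lower, grey points genes not called, and the dotted line is the median of all tested genes at -0.01. The classical class I chains and B2m lie together between 0.44 and 0.56, H2-Q10 lies at 1.03, and Cd1d1, Tapbpl and H2-Ke6 lie below 0.

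The classical class I chains and their light chain were higher in knockout tissue by a similar, modest step. H2-K1, a classical heavy chain that presents peptides to CD8 T cells, had 439.7, 470.4, 579.8 and 648 CPM in knockouts, against 387, 289, 434 and 339 CPM in controls. The groups did not overlap, although the lowest knockout and the highest control, 517, lay side by side. The log2 fold change of H2-K1 was 0.56 with an SE of 0.16 (n = 4 per group) and an adjusted p of 0.0229 by edgeR. B2m, the light chain that pairs with class I heavy chains, had 538, 542, 689 and 731 CPM in knockouts, against 519, 379, 508 and 419 CPM in controls. Its log2 fold change was 0.45 with an SE of 0.14 and an adjusted p of 0.0332 by edgeR. H2-D1, the other classical heavy chain of this haplotype, had 418, 413, 526 and 527 CPM in knockouts, against 405, 281, 399.7 and 306 CPM in controls, a log2 fold change of 0.44 with an SE of 0.14 and an adjusted p of 0.0442 by edgeR. For all of these, knockouts 515 and 516 were the highest libraries and controls 514 and 518 the lowest.

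The row named H2-L lies over the same exons as H2-D1 and gave a log2 fold change of 0.44. The b haplotype of C57BL/6 mice is known to lack an H2-L gene, and the reads of this row cannot be told apart from those of H2-D1. On the scale of CPM per kilobase of transcript, B2m stood at 736 in knockouts and 538 in controls, H2-K1 at 328 and 222, H2-D1 at 274 and 203, and H2-Q10 at 262 and 128. The order of the levels of B2m, H2-K1 and H2-D1 was the same in both groups, and H2-Q10 stood just under H2-D1 in knockouts. Of 50-base windows along the H2-K1 transcript 8.79% also occur in a transcript of another gene, 14.3% along H2-D1 and none along B2m, so some reads of the heavy chains cannot be given to a single gene.

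These calls rested on several libraries at once. The H2-K1 call was lost without knockout 515 (edgeR adjusted p = 0.0619) or without knockout 516 (edgeR adjusted p = 0.0643). The B2m call was lost without either of these or without control 514 or 518, with edgeR adjusted p-values of 0.0622 to 0.0914. The H2-D1 call was lost without any of these 4 or without knockout 513, with edgeR adjusted p-values of 0.0528 to 0.114. Their log2 fold changes stayed positive throughout, between 0.34 and 0.76 over all 16 alternatives. In the authors' deposited table H2-K1 had a fold of 1.46 (FDR 0.0111), B2m a fold of 1.35 (FDR 0.0393) and H2-D1 a fold of 1.34 (FDR 0.0563).

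H2-Q10 showed the largest log2 fold change of the 36 tested members. It encodes a class I heavy chain of the Q region that in mouse is known as a secreted protein made abundantly by the liver. Knockouts held 261, 373, 446 and 447 CPM, against 193, 227, 209 and 119 CPM in controls. Every knockout lay above every control, and knockout 512 was the nearest to them. The mean was 382 ± 87.5 CPM in knockouts and 187 ± 47.4 CPM in controls (SD, n = 4 each), a 2.04-fold difference. Its log2 fold change was 1.03 with an SE of 0.22 and an adjusted p of 0.00807 by edgeR. The call held under all 16 alternatives, with log2 fold changes of 0.89 to 1.23 and edgeR adjusted p-values, or those of DESeq2 and limma-voom, of 1.71e-05 to 0.0257. Of the 50-base windows of its transcript 11.0% also occur in transcripts of other genes.

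The control libraries ranked differently for H2-Q10 than for the classical chains. Control 514 was the highest control for H2-Q10 and the lowest for H2-K1, H2-D1 and B2m. Because of its known expression in liver, a list of 8 hepatocyte genes, chosen after the H2-Q10 values were seen, was read beside it. These genes summed to 1.01 to 2.13 CPM in knockouts and 1.32 to 1.91 CPM in controls. Alb, the gene of serum albumin, stayed at or below 0.642 CPM in knockouts and 0.546 CPM in controls, and Ttr and Ahsg had no count in any library.

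The other class I heavy chains numbered 29, of which H2-Q10 and 14 more were tested. None of these 14 was called by edgeR, while 2 (H2-T22 and H2-T9) had an unadjusted p under 0.05 and were called by DESeq2, and 11 had a positive log2 fold change. H2-T22, whose product is known in mouse as a ligand of some gamma-delta T cells, had 64.2, 61.3, 72.0 and 71.3 CPM in knockouts, against 61.9, 50.3, 63.0 and 49.3 CPM in controls, a log2 fold change of 0.26 with an SE of 0.10 and an adjusted p of 0.0769 by edgeR. The knockouts overlapped controls 511 and 517. DESeq2 called it with an adjusted p of 0.0457, and so did edgeR with upper quartile factors or library sizes alone.

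H2-T23 encodes Qa-1, which presents leader peptides of other class I chains to the inhibitory receptor of natural killer cells. It had 25.9, 26.2, 37.4 and 34.5 CPM in knockouts, against 19.1, 18.0, 33.6 and 25.6 CPM in controls, and its log2 fold change was 0.37 with an SE of 0.21 and an adjusted p of 0.200 by edgeR. Control 517 was the highest control, and without it the log2 fold change was 0.57 (edgeR adjusted p = 0.0446). H2-Q4 had 26.0, 40.9, 42.0 and 45.1 CPM in knockouts, against 25.1, 18.5, 48.7 and 29.9 CPM in controls, and the groups overlapped. The log2 fold change of H2-Q4 was 0.33 (edgeR adjusted p = 0.382), and 0.65 without control 517 (edgeR adjusted p = 0.0564).

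The Qa-2 genes of the Q region were spread widely within both groups. H2-Q7 had 3.69, 5.30, 9.43 and 7.59 CPM in knockouts, against 5.03, 1.52, 13.7 and 8.48 CPM in controls. Control 517 was the highest of all libraries and control 514 the lowest. Its log2 fold change was -0.14 with an SE of 0.54 and an adjusted p of 0.866 by edgeR, and without control 517 the fold change was 0.37 (edgeR adjusted p = 0.616). Of the 50-base windows of its transcript 40.2% are shared with other genes. H2-M3, which in mouse presents N-formylated bacterial peptides, averaged 6.21 ± 0.914 CPM in knockouts and 5.02 ± 1.03 CPM in controls (SD, n = 4 each, edgeR adjusted p = 0.201).

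Most of the H2-M series was at the floor of detection. H2-M10.1 to H2-M10.5 had no count in any library, and H2-M10.6, H2-M1, H2-M2, H2-M5, H2-M11, H2-T3, H2-Bl, H2-Q1 and H2-Q2 stayed at or below 0.264 CPM in all 8. Summed over all class I heavy and light chains, leaving out rows that share a locus, the level was 1801, 1960.0, 2435 and 2541 CPM in knockouts, against 1637, 1283, 1753 and 1324 CPM in controls. All 4 knockouts lay above all 4 controls, and control 517 was the nearest to them.

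**Figure D2:**
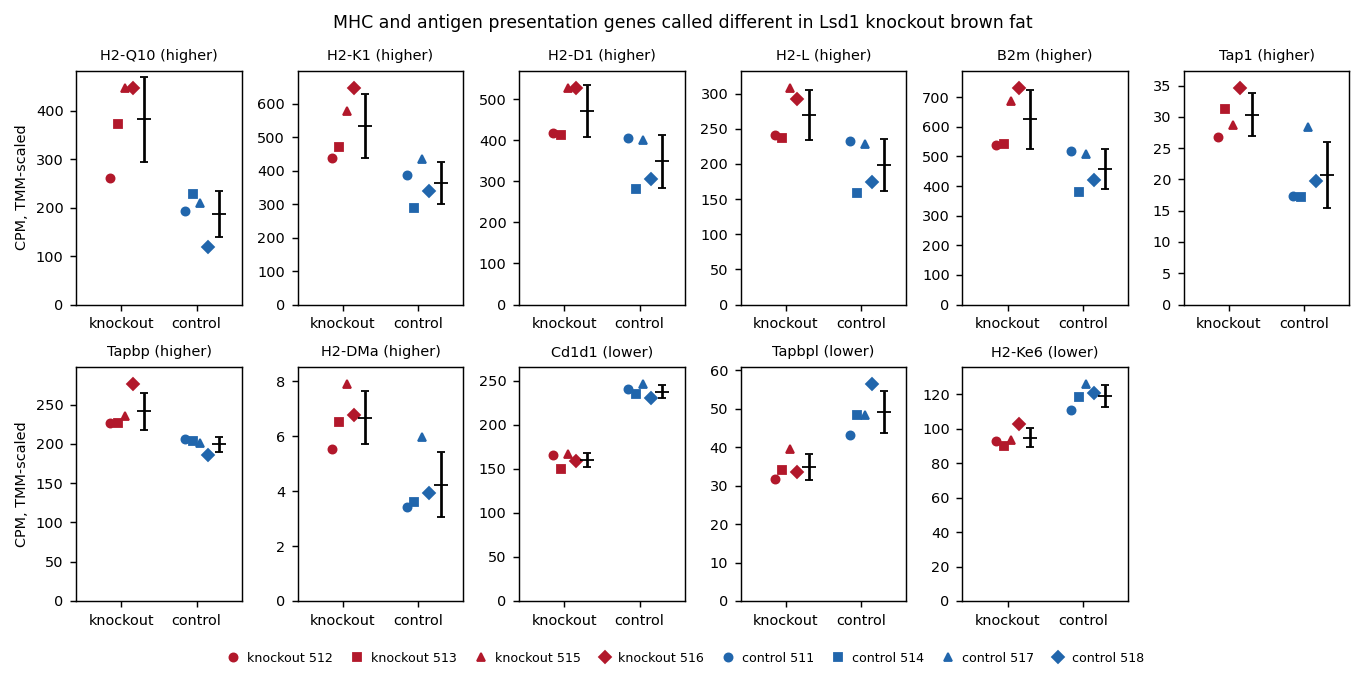
CPM of the 11 called members in each library, knockouts in red and controls in blue, with a marker shape for each library and a bar for the mean and SD of 4 libraries. H2-Q10 runs from 261 to 447 CPM in knockouts and from 119 to 227 CPM in controls, and Cd1d1 from 149 to 166 CPM in knockouts and from 229.7 to 246 CPM in controls.

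The genes that load peptides onto class I did not move as a block. Tap1, a subunit of the peptide transporter, had 26.7, 31.3, 28.6 and 34.6 CPM in knockouts, against 17.4, 17.1, 28.4 and 19.8 CPM in controls. Only control 517 reached into the knockout range. The log2 fold change was 0.55 with an SE of 0.17 and an adjusted p of 0.0299 by edgeR, and 0.74 without control 517 (edgeR adjusted p = 0.00350). Without any of the libraries 513, 515, 516, 511, 514 or 518 the Tap1 call was lost, with edgeR adjusted p-values of 0.0543 to 0.0828.

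Tap2, the partner subunit, was not called. It had 82.9, 93.5, 95.5 and 101.4 CPM in knockouts, against 80.5, 79.0, 86.9 and 101.6 CPM in controls, and its log2 fold change was 0.10 with an SE of 0.10 and an adjusted p of 0.446 by edgeR. Tapbp, which encodes tapasin, the bridge between the transporter and class I, had 227, 227, 236 and 276 CPM in knockouts, against 206, 204, 202 and 186 CPM in controls. The groups did not overlap and the log2 fold change was 0.28 with an SE of 0.08 and an adjusted p of 0.0276 by edgeR. The Tapbp call was lost without knockout 515, knockout 516 or control 517 (edgeR adjusted p of 0.0564, 0.0651 and 0.0543).

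Tapbpl, the tapasin relative known as TAPBPR, which edits the peptides of class I outside the loading complex, was lower in knockouts. It had 31.8, 34.1, 39.7 and 33.6 CPM in knockouts, against 43.3, 48.4, 48.4 and 56.4 CPM in controls. No knockout reached a control, and the log2 fold change was -0.50 with an SE of 0.10 and an adjusted p of 0.00552 by edgeR. The direction of Tapbpl was thus opposite to that of Tapbp. With library sizes alone the Tapbpl fold change was -0.30 (edgeR adjusted p = 0.0609). Erap1, the peptidase that trims peptides to fit class I, had 46.6, 48.7, 45.8 and 39.9 CPM in knockouts, against 41.4, 46.9, 49.9 and 54.2 CPM in controls (edgeR adjusted p = 0.513).

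Cd1d1, which presents lipids to natural killer T cells, was lower in knockouts, with the smallest SE of the 36 tested members. It had 165, 149, 166 and 159 CPM in knockouts, against 240.2, 234, 246 and 229.7 CPM in controls. The SD was 7.75 CPM in knockouts and 6.97 CPM in controls, around means of 160.0 and 237 CPM. The log2 fold change was -0.57 with an SE of 0.06 (n = 4 per group) and an adjusted p of 0.000429 by edgeR. The call held under all 16 alternatives, with log2 fold changes of -0.59 to -0.37.

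Its neighbour Cd1d2 behaved in another way. Control 517 held 295 counts, 13.0 CPM, while no other library of either group exceeded 0.237 CPM, and the gene did not pass the filter on low counts. The authors' deposited table lists Cd1d2 with a fold of 0.0385 (FDR 0.00229), a value that in these counts rests on that library. Cd1d1 and Cd1d2 share 25.8% of the 50-base windows of the Cd1d1 transcript. H2-Ke6, which lies in the MHC but encodes a short-chain dehydrogenase (hydroxysteroid 17-beta dehydrogenase 8) and not a presenting molecule, had 93.0, 89.9, 93.6 and 102.8 CPM in knockouts, against 110.7, 119, 126 and 120.8 CPM in controls. Its log2 fold change was -0.33 with an SE of 0.07 and an adjusted p of 0.00645 by edgeR, and -0.13 with library sizes alone (edgeR adjusted p = 0.198).

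The class II genes were not called in the knockout, with the exception of H2-DMa. Cd74, the invariant chain, had 127, 151, 169 and 200.1 CPM in knockouts, against 97.3, 99.3, 204 and 102.0 CPM in controls. The knockouts lay above controls 511, 514 and 518, and control 517 lay above all of them. With all libraries the log2 fold change was 0.37 with an SE of 0.25 and an adjusted p of 0.287 by edgeR, and without control 517 it was 0.70 (edgeR adjusted p = 0.00991).

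The surface chains had the same shape. H2-Aa, the alpha chain of I-A, had 49.1, 59.2, 66.7 and 82.5 CPM in knockouts, against 35.3, 37.0, 81.7 and 44.6 CPM in controls. H2-Ab1, its beta chain, had 35.5, 45.8, 52.1 and 58.4 CPM in knockouts, against 27.4, 29.0, 60.8 and 34.4 CPM in controls. In both, the 3 controls other than 517 lay below all knockouts. H2-Eb1, the beta chain of I-E, had 49.7, 65.8, 73.1 and 81.4 CPM in knockouts, against 37.0, 44.5, 78.8 and 45.3 CPM in controls. With all 8 libraries the log2 fold changes were 0.38, 0.34 and 0.39, with edgeR adjusted p-values of 0.310, 0.331 and 0.223. Without control 517 they were 0.72, 0.66 and 0.67, with edgeR adjusted p-values of 0.0182, 0.0217 and 0.0190. H2-Ea-ps, the alpha chain locus of I-E, had no count in any library, and the b haplotype is known to make no I-E alpha chain.

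Among the editors, H2-DMa had 5.53, 6.51, 7.89 and 6.77 CPM in knockouts, against 3.43, 3.59, 5.99 and 3.92 CPM in controls. Control 517 again lay within the knockout range. Its log2 fold change was 0.66 with an SE of 0.20 and an adjusted p of 0.0325 by edgeR, and 0.87 without control 517 (edgeR adjusted p = 0.00656). Without any 1 of the libraries 513, 515, 516, 511, 514 or 518 the call was lost, with edgeR adjusted p-values of 0.0607 to 0.0909. H2-DMb1, a beta chain of the same editor, had 3.81, 4.59, 4.89 and 5.38 CPM in knockouts, against 2.88, 2.91, 5.37 and 2.94 CPM in controls. It was not called (edgeR adjusted p = 0.200), but without control 517 its log2 fold change was 0.68 (edgeR adjusted p = 0.0171). H2-DMb2 and H2-Ob, a subunit of the DM inhibitor found mostly in B cells, had negative log2 fold changes of -0.72 ± 0.47 and -0.66 ± 0.44 (SE), and neither was called. Without control 517 they were -0.17 and -0.05, with edgeR adjusted p-values of 0.740 and 0.914.

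In H2-Ob the negative value came with a single library: the knockouts had 1.52, 1.50, 1.03 and 1.31 CPM, and the controls 0.936, 1.32, 4.40 and 1.88 CPM. Control 517 held the highest level of H2-Ob, as it did of the B cell markers. H2-Eb2 and H2-Oa stayed at or below 0.617 CPM in every library and were not tested.

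The levels of all 11 class II chains, chaperones and editors summed to 273, 335, 376 and 437 CPM in knockouts, against 205, 219, 444 and 236 CPM in controls. The 10 leukocyte markers summed to 84.9, 101.6, 115 and 128 CPM in knockouts, against 65.4, 61.4, 138 and 74.6 CPM in controls. The ratio of the class II sum to the leukocyte sum was 3.22, 3.30, 3.27 and 3.40 in knockouts, against 3.13, 3.56, 3.21 and 3.16 in controls. The groups overlapped, and control 517, which had the highest sums of both, had a ratio among those of the rest. Of the leukocyte markers 1 of 10 was called higher (Itgb2) and none lower, against 15.4% and 18.9% of all tested genes. The leukocyte sums of controls 511, 514 and 518 lay below those of all knockouts, and that of control 517 above them. Ptprc itself was not called (edgeR adjusted p = 0.998). It had 9.02, 11.1, 13.1 and 12.9 CPM in knockouts, against 6.00, 7.94, 22.2 and 10.2 CPM in controls, with control 517 the highest library. The ratio of the class I sum to the leukocyte sum was 21.2, 19.3, 21.2 and 19.8 in knockouts, against 25.0, 20.9, 12.7 and 17.7 in controls, and it was lowest in control 517.

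**Figure D3:**
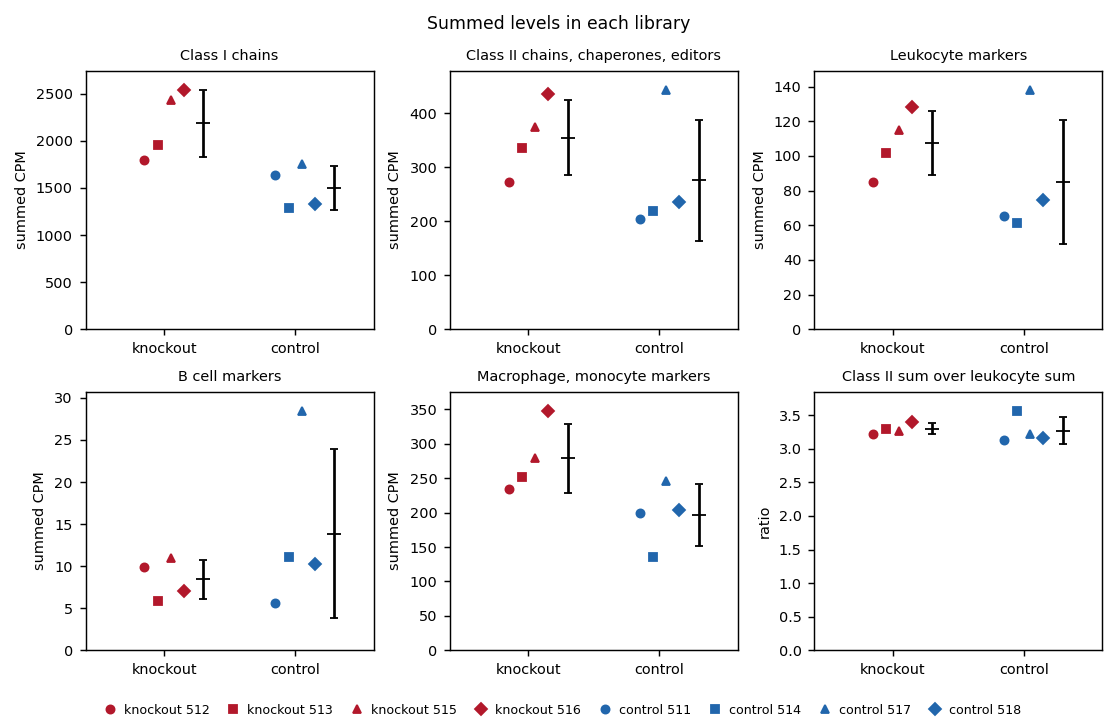
Summed CPM in each library of the class I chains, the class II genes and 3 marker lists, and the ratio of the class II sum to the leukocyte marker sum, with knockouts in red, controls in blue and bars for the mean and SD of 4 libraries. Control 517 is the highest library for class II at 444 CPM, for leukocyte markers at 138 CPM and for B cell markers at 28.4 CPM, while its ratio of 3.21 lies among those of the other libraries.

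Markers of particular antigen-presenting cells were read beside these genes. Of all tested genes 15.4% were called higher and 18.9% lower, and 48.7% had a positive log2 fold change. Of 16 macrophage and monocyte markers 4 were called higher (Cd68, Csf1r, C1qa and C1qb) and none lower, and all 16 had a positive log2 fold change. Their sum was 235 to 348 CPM in knockouts and 136 to 246 CPM in controls. The highest control was 517, and the other controls, at 136 to 204 CPM, lay below all knockouts. The defining marker of this list, Adgre1 (given as Emr1 in the table), averaged 10.0 ± 2.14 CPM in knockouts and 7.13 ± 2.16 CPM in controls (SD, n = 4 each) and was not called (edgeR adjusted p = 0.128). Of 9 tested dendritic cell markers 1 was called higher (Itgax), with sums of 28.2 to 35.6 CPM in knockouts and 23.7 to 27.9 CPM in controls, and the defining marker Flt3 was too low to be tested. Of 8 tested B cell markers none was called by edgeR or DESeq2 and 1 had an unadjusted p under 0.05, with sums of 5.90 to 10.9 CPM in knockouts and 5.65 to 28.4 CPM in controls. Of 8 tested T and natural killer cell markers none was called by edgeR or DESeq2 or had an unadjusted p under 0.05. They summed to 9.55 to 12.4 CPM in knockouts and 6.47 to 23.0 CPM in controls, or 6.47 to 11.5 CPM in controls without 517. Cd3e, which defines the T cell list, lay at 0.299 to 0.602 CPM in knockouts and 0.234 to 1.23 CPM in controls. The 10 endothelial markers, of cells that carry much class I, summed to 1313 to 1563 CPM in knockouts and 1345 to 1543 CPM in controls. None of them was called by edgeR, 1 was called by DESeq2, and 3 had an unadjusted p under 0.05. The part of these cells in the class I and class II values was not tested.

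Markers of other parts of the tissue differed between the groups as well. The 10 brown adipocyte markers summed to 12170 to 13837 CPM in knockouts and 18217 to 24624 CPM in controls. EdgeR called 6 of them lower, against 18.9% of all tested genes. The 10 skeletal muscle markers summed to 5993 to 12658 CPM in knockouts and 218 to 4999 CPM in controls. The highest knockout of that sum was 512, the library with the lowest class I sum of its group. Among the controls, 514 had the lowest muscle sum, 218 CPM, and also the lowest class I sum, 1283 CPM. Controls 518, 511 and 517 had muscle sums of 4999, 3576 and 3102 CPM, with class I sums of 1324, 1637 and 1753 CPM. EdgeR called 1 of the 10 muscle markers higher, against 15.4% of all tested genes, and limma-voom with sample weights all 10. The part of either difference in the values of the members was not tested.

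The master regulators of both classes were measured at low levels. Nlrc5, the transactivator of class I genes, had 8.34, 8.31, 9.35 and 8.34 CPM in knockouts, against 8.50, 6.46, 12.9 and 15.4 CPM in controls. The 4 knockouts lay within the spread of the controls, and the log2 fold change was -0.33 with an SE of 0.24 and an adjusted p of 0.316 by edgeR. Ciita, the transactivator of class II genes, had 2.09, 2.86, 2.52 and 2.99 CPM in knockouts, against 1.48, 1.68, 4.67 and 2.11 CPM in controls. Control 517 was again the highest, and the log2 fold change was 0.08 with an SE of 0.35 and an adjusted p of 0.875 by edgeR, and 0.57 without control 517 (edgeR adjusted p = 0.0713).

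Among 58 further genes of the pathway, listed by function, 54 were tested, 9 were called higher and 12 lower, with a median log2 fold change of -0.01. The shares, 16.7% higher and 22.2% lower, lay near the 15.4% and 18.9% of all tested genes. Nothing particular to the pathway or its lists is read from them. With library sizes alone the numbers called higher and lower were 16 and 3, and with upper quartile factors 11 and 8, so the balance of directions depends on the scaling. Without knockout 515 or without knockout 516 they were 3 and 8. Of 17 partners of the class I pathway 3 were higher: the immunoproteasome subunits Psmb9 (log2 fold change 0.42, edgeR adjusted p = 0.0406) and Psmb10 (0.40, edgeR adjusted p = 0.0340), and Ube2l6. The third immunoproteasome subunit, Psmb8, had 22.7, 30.7, 34.1 and 35.9 CPM in knockouts, against 19.3, 17.1, 28.4 and 21.9 CPM in controls, and was not called (edgeR adjusted p = 0.0572), although DESeq2 called it (adjusted p = 0.0234) and so did edgeR without control 517 (adjusted p = 0.0212). The Psmb9 call was lost without any of 6 libraries and the Psmb10 call without any of 5, knockouts 513, 515 and 516 and control 518 among both, with edgeR adjusted p-values of 0.0521 to 0.110. Ube2l6, the conjugating enzyme for the interferon-induced modifier ISG15, had 13.9, 19.3, 21.6 and 23.0 CPM in knockouts, against 8.19, 7.90, 11.3 and 8.74 CPM in controls, a log2 fold change of 1.11 with an SE of 0.18 and an adjusted p of 0.00199 by edgeR.

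On the lower side of the class I partners stood Psme3 and Psme2, subunits of proteasome activators, Tpp2, a cytosolic peptidase, Sec61b, a subunit of the translocon, and Sec22b, a vesicle fusion protein. Psme3 had 97.3, 97.3, 99.2 and 87.7 CPM in knockouts, against 126, 127, 122 and 127 CPM in controls, and its log2 fold change was -0.40 with an SE of 0.06 and an adjusted p of 0.00163 by edgeR. The 3 genes Tpp2, Sec61b and Sec22b had log2 fold changes of -0.30, -0.37 and -0.28. Of 16 tested class II partners 2 were higher, the costimulator Cd86 and Cybb, a subunit of the phagocyte oxidase, and 3 were lower: Ctsd, the lysosomal protease cathepsin D, the adaptor subunit Ap1s1 and the small GTPase Rab7. Ctsd had 1399, 1289, 1379.6 and 1522 CPM in knockouts, against 2090.3, 1659, 2081 and 1871 CPM in controls.

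Of 16 transcription factors that act on MHC genes 3 were higher and 4 lower. Rfx5, a subunit of the RFX complex that binds the X box of both classes, had 23.9, 23.5, 22.6 and 28.3 CPM in knockouts, against 14.9, 16.9, 14.4 and 17.6 CPM in controls. Its log2 fold change was 0.63 with an SE of 0.10 and an adjusted p of 0.00243 by edgeR, and the groups did not overlap. Rfxank, another subunit of the same complex, was lower, with 27.6, 41.6, 40.2 and 32.5 CPM in knockouts, against 60.8, 42.8, 47.6 and 44.2 CPM in controls. The Rfxank call was lost without any of knockouts 512, 515 and 516 or controls 511, 517 and 518 (edgeR adjusted p of 0.0530 to 0.110). Nfyc, a subunit of the factor that binds the Y box, was lower as well, and its log2 fold change was -0.63 with an SE of 0.15 and an adjusted p of 0.0117 by edgeR. Irf1 and Spi1 were the other factors called higher, and Hdac2 was called lower. The calls of Spi1, Hdac2, Cd86 and Cybb were each lost without knockout 515 or without knockout 516 (edgeR adjusted p of 0.0503 to 0.0961).

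Of 25 tested interferon-stimulated genes 3 were called higher (Irf7, Oasl2 and Cxcl10) and none lower, against 15.4% and 18.9% of all tested genes. Nothing particular to this list is read from the count, and 15 of these genes had a positive and 10 a negative log2 fold change. Their sum was 236 to 366 CPM in knockouts and 217 to 454 CPM in controls. Of 5 tested MHC-like genes outside the rule only Mr1, which presents vitamin B metabolites to mucosal-associated invariant T cells, was called. Mr1 had 32.3, 36.8, 40.7 and 46.7 CPM in knockouts, against 27.6, 17.4, 14.4 and 12.1 CPM in controls, a log2 fold change of 1.13 with an SE of 0.24 and an adjusted p of 0.00711 by edgeR. Its direction was thus the reverse of that of Cd1d1. Hfe, Procr and Mill2 were not called.

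The members on chromosome 17, 46 of the 54, span 3.56 Mb, chr17:33919478-37483529 in mm10. The other genes annotated in this interval gave 93 tested genes, of which 20.4% were called higher and 22.6% lower, with a median log2 fold change of 0.06. Of all tested genes 15.4% were called higher and 18.9% lower, with a median of -0.01. Nothing particular to the interval is read from these shares. The genes of highest level, H2-K1 (chr17:33996012-34000333) and H2-D1 (chr17:35263094-35267497), lie 1.27 Mb apart with H2-Ke6, lower in knockouts, between them, and H2-Q10 lies at chr17:35470089-35474563. B2m (chr2:122147687-122153082), Cd1d1 (chr3:86995836-86999340) and Tapbpl (chr6:125224212-125231860) lie on other chromosomes.

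The dependence of these calls on single libraries is seen in the map of adjusted p-values. Without knockout 515 or without knockout 516 only H2-Q10 was still called higher, while without control 517 the number called higher was 14. The 3 members called lower remained called whichever library was left out.

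**Figure D4:**
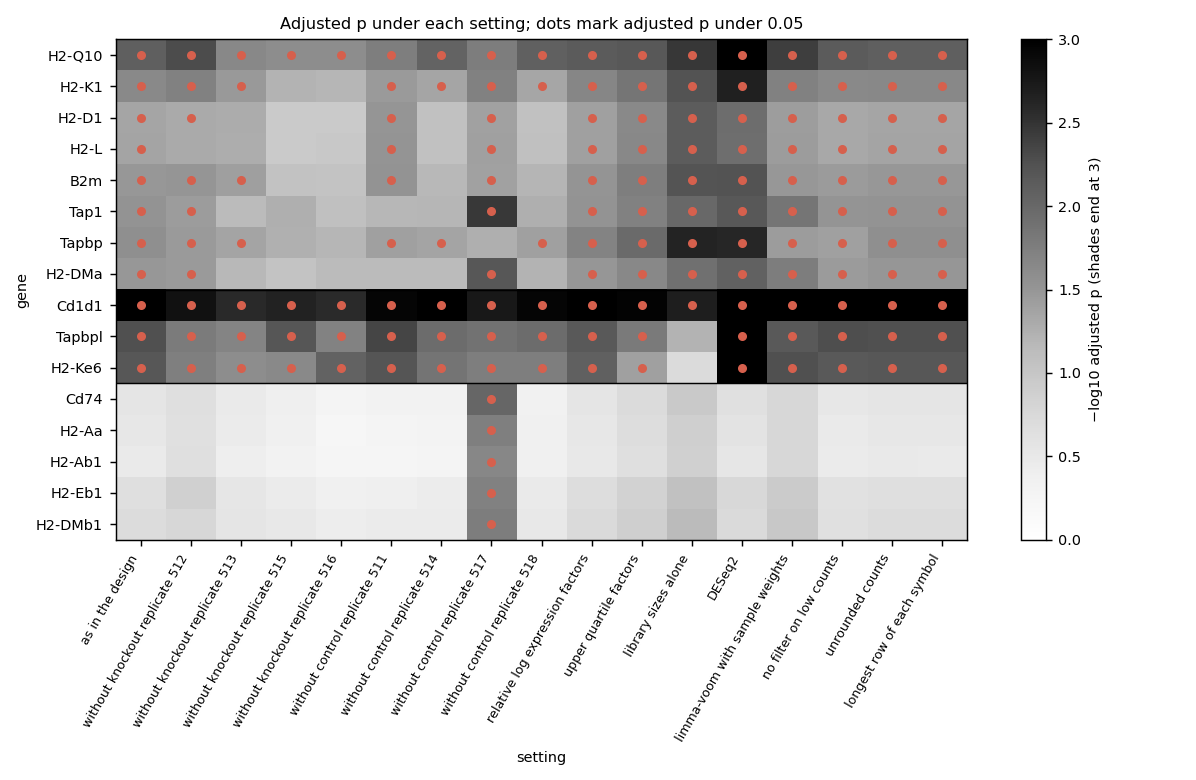
Adjusted p of the 11 called members and 5 class II genes (rows) under the main setting and 16 alternatives (columns), shaded by −log10 of the adjusted p with shades ending at 3, and with a dot where it is under 0.05. H2-Q10 and Cd1d1 have a dot in every column, the classical class I genes lose theirs when some single libraries are left out, and the class II genes below the lower line have one only without control 517.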

How the data were processed

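Brown adipose RNA of 8 libraries, 4 knockout and 4 control, had been extracted with Trizol and sequenced by Illumina, per the labels' protocols. Alignment to mm10 with TopHat2 (version 2), counting with HOMER and testing with edgeR and DESeq 1.8.3 are given by the submitters' processing notes and design text. The estimated counts deposited by the authors are unadjusted exon counts of RefSeq transcripts over both strands, per the file headers, so overlapping and antisense genes cannot be told apart. They are multiples of 0.5, 36.9% of values are not whole, and they were rounded before testing. The authors' own comparison was also read: its scaled counts, a signal made by the authors, were not used in any test, and its fold (a ratio of knockout to control), log2 fold change and log2 CPM, p-value and FDR are the authors' values, per the file headers. Rows with no gene symbol (829, at most 0.0824% of a library's counts) were left out. For a symbol with several rows the row with the highest total was kept.

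Low genes were removed with filterByExpr of edgeR (minimum count 10). Knockout was compared with control by edgeR 4.0.16 (R 4.3.3) with TMM factors of 1.05 to 1.10 in knockouts and 0.898 to 0.961 in controls, by the quasi-likelihood test without covariates. The SE is the log2 fold change divided by the square root of F, an approximation. The common dispersion amounted to a biological coefficient of variation of 0.181. The test was checked on simulated counts. Pairs of libraries of a group differed by more than sampling noise, with a chi-square over its degrees of freedom of at least 13.1 in knockouts and 52.3 in controls. Alternatives were other scaling factors, DESeq2 1.42.0, limma-voom with sample weights (limma 3.58.1), no filter, unrounded counts, the longest row of a symbol and leaving out each library. Promoters were searched in RefSeq windows, and shared 50-base windows were counted in GENCODE transcripts.

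The members and gene lists were chosen with earlier results of these data known. Values in every library are given for members with an adjusted p under 0.05 or no overlap between groups, and for up to 3 members of highest CPM per role. From each list of pathway genes up to 4 with the smallest p are named, and others named were chosen after their values were seen.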

Additional observations from a re-analysis of the deposited data

Results flagged for a closer look

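Among the members and the summed lists, 7 values in a group of 4 libraries lay far from the other 3 by Dixon's criterion at the 95% level. Chance marks about 1 in 20 groups in this way. Both the knockout and the control group were examined for each of 41 members and for the summed lists, so several marks can arise by chance. Of the 7, 5 were high values of control 517. They were Cd1d2 at 13.0 CPM, Cd74 at 204 CPM, H2-DMb1 at 5.37 CPM, H2-M2 at 0.264 CPM and the class II sum at 444 CPM. Their next highest control stood at 0.226 CPM for Cd1d2, 102.0 CPM for Cd74, 2.94 CPM for H2-DMb1, 0 for H2-M2 and 236 CPM for the class II sum. Cd74 and H2-DMb1 are part of the class II sum, so these marks are not independent. Knockout 515 was high for Nlrc5 at 9.35 CPM, with the next knockout at 8.34 CPM. Knockout 516 was high for the summed dendritic cell markers at 35.6 CPM, with the next knockout at 29.3 CPM.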

How the results depend on the processing

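The calls of H2-Q10 and Cd1d1 were the same under all 16 alternatives. The members called higher numbered 8 and those called lower 3. With 1 library left out, the higher count ranged from 1 to 14: it was 1 without knockout 515 or knockout 516, 3 without control 514 or control 518, 4 without knockout 513 and 14 without control 517. The lower count was 3 in every such fit, and 1 with library sizes alone, where 10 members were higher. Of all tested genes 4871 were called, and 3427 to 4770 with 1 library left out. Pathway genes outside the rule were called higher in 9 cases and lower in 12, with ranges of 3 to 10 and 8 to 11 on leaving out a library and 16 and 3 with library sizes alone. The fewest called higher, 3, came without knockout 515 or 516, then 4 without knockout 513 and 5 without control 511, 514 or 518. Library sizes alone raised the median log2 fold change of all genes by 0.20 and upper quartile factors by 0.10, and split the calls of all genes into 4077 higher and 930 lower, and 2915 and 1625, against 2189 and 2682 with TMM. The sign turned for Erap1 (0.015 with upper quartile factors, 0.11 with library sizes alone) and Ciita (from -0.10 without control 511 and -0.07 without control 514 to 0.57 without control 517), neither of them called. It also turned for H2-Q7, likewise not called (0.055 with library sizes alone, 0.43 with limma-voom, and -0.48 to 0.37 on leaving out a library), and among members with no fold change given for H2-Q5, H2-Q6, H2-Q8, H2-Q9 and H2-T10, none of them called. Except where fewer libraries entered, the cause was not tested. No paired analysis was possible because no replicate number is shared between the groups.

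Members under the filter on low counts, 18 of 54, have no test in the values above. Without that filter 11 of them were tested and none was called, Cd1d2 having the smallest adjusted p (log2 fold change -4.79, edgeR adjusted p = 0.0614). H2-L, H2-T9, H2-Q9 and H2-Q8 repeat the reads of neighbours, and strand was not used in counting. CPM says nothing of protein at the cell surface.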
